A study of Mus musculus with 16 samples.

Results

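The step from day 4 (D4) to day 6 (D6) of chemical reprogramming was examined in mouse cells by reduced representation bisulfite sequencing (RRBS). RRBS cuts genomic DNA with MspI, whose site holds a CpG, and so samples the CpG-rich part of the genome, while bisulfite turns unmethylated cytosine into a base read as thymine. The step was taken as the D6 libraries (2) against the D4 libraries (2), 4 of the 16 libraries of the series. CpG sites, with the strands kept apart, entered when at least 10 reads covered them in each of the 4 libraries, and autosomal windows of 1 kb (tiles) entered when they held at least 3 such sites. This left 1178669 autosomal sites, 46.4% of those listed in any of the 4 libraries, and 114041 tiles of the 316363 in which any library of the series listed a site. Tiles with 2 such sites, just outside the limit, lost 15.0% of their D4 level (22195 tiles), and tiles with 3 sites, just inside it, also lost 15.0% (11996 tiles). No gene, promoter or sequence is attached to a tile, because an annotation of the build of the files was not used here.

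D4 and D6 cells were reprogramming intermediates of the labelled strain 129XOG2 E13.5 embryo, derived from OG2 mouse embryonic fibroblasts (MEFs), whose transgene makes cells fluoresce when the pluripotency gene Oct4 is active. Both groups had been moved from serum-containing MEF medium to reprogramming medium on the day after seeding, without selection for the reporter as far as the labels say. Medium was changed every 2 days in general and renewed daily from day 4 to day 8, so the step studied here lies within the daily phase. The labels used here do not list what the reprogramming medium contained. Nor do they say whether both replicates of a day were grown apart or came from different embryos, and a p-value then covers just the spread among these libraries, which may be technical. A bulk library mixes cells, and methylation lost from a share of the cells cannot be told apart from a smaller loss in every cell.

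DNA methylation in mammals sits mostly on the cytosine of CpG pairs. DNMT1 copies it to the new strand after replication with the help of UHRF1, DNMT3A and DNMT3B add it to unmethylated DNA, and TET enzymes oxidise it. A level can therefore fall passively, when cells divide without copying, or actively. Fibroblasts hold high levels outside CpG islands, and CpG-dense islands are mostly unmethylated.

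Depth differed more within D6 than within D4. The coverage of the listed sites summed to 52316238 and 56525043 reads in D4 replicates 1 and 2 and to 39011213 and 83246575 reads in D6 replicates 1 and 2. The median tile held 7 sites, 6 distinct CpGs listed in any library of the series, and 209, 222, 167 and 293 reads in the 4 libraries in that order. Replicates agreed across tiles with a Pearson r of 0.950 at D4 and 0.917 at D6, and their counts differed by a chi-square of 2.30 and 2.38 per site on average, above the value near 1 of sampling noise alone, so they were kept as separate libraries. The libraries hold no molecular identifiers, so reads are not independent molecules. The reads of a tile are summed over its sites, so a read that covers several CpGs is counted at each of them.

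Mean methylation of the common sites was lower in both D6 libraries than in both D4 libraries. It was 49.7% and 49.6% in D4 replicates 1 and 2 and 42.3% and 43.0% in D6 replicates 1 and 2. The difference was -6.98 points ± 0.355 (SE, n = 2 libraries per day). The gap between the days was many times the gap between the libraries of a day. An exact permutation test (two-sided) gave p = 0.333, which is the lowest value that 4 libraries in groups of 2 allow, so it cannot pass a threshold of 0.05.

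The fall was mainly a shift of highly methylated sites into the intermediate range. Sites at 80% methylation or more made up 34.5% and 34.6% of the common sites in the D4 libraries and 20.4% and 20.0% in the D6 libraries. Sites between 20% and 80% went from 31.1% and 30.6% to 41.5% and 42.5%. Sites under 20% went from 34.4% and 34.8% to 38.0% and 37.5%, a gain of 3.19 points against the gain of 11.2 points in the intermediate class. The groups did not overlap in any of the 3 classes. At the upper end, sites at 90% or more fell from a mean of 23.2% of sites to 9.17%, and sites read as fully methylated from 10.1% to 2.94%. Sites read as fully unmethylated gave no such separation: they made up 11.5% in each D4 library but 16% in D6 replicate 1 and 10.2% in D6 replicate 2. The D6 library with the higher share is the shallower one, and the part of depth in that gap was not tested.

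**Figure D1:**
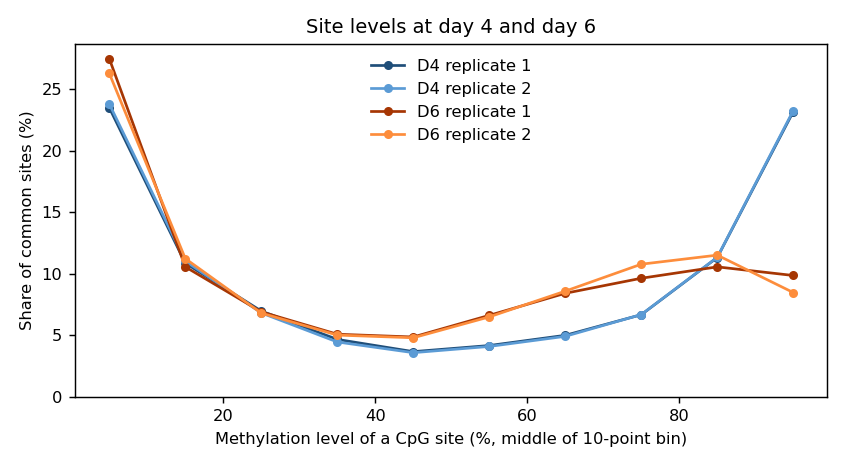
Share of the common sites in each 10-point bin of methylation level (x, middle of the bin, %) for each D4 and D6 library (y, % of sites), 1 line per library. The bin from 90 to 100% holds 23.2% and 23.3% of sites in the D4 libraries and 9.86% and 8.48% in the D6 libraries, while the bins from 40 to 80% are higher at D6.

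Sites were also followed individually, with the site chosen in one D4 library and its start level read in the other, so that a chance high reading does not enter the loss. Of the 274259 sites at 90% or more in D4 replicate 2, 89.3% were at 80% or more in D4 replicate 1 and 59.2% in D6 replicate 1. Of the 273169 sites chosen in the same way in D4 replicate 1, 89.5% were at 80% or more in D4 replicate 2 and 59.5% in D6 replicate 2. Almost all of the sites that left the upper class stood between 20% and 80% at D6, where 40.7% and 40.4% of the chosen sites lay. Only 0.133% and 0.0677% of them were under 20% at D6, against 0.0190% and 0.0146% in the other D4 library. Complete loss at a site that had been highly methylated was therefore rare in this step.

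Across tiles the loss was broad. The mean tile level was 57.2% and 57.3% in the D4 libraries and 48.5% and 49.1% in the D6 libraries, a loss of 8.47 points ± 0.394 (SD of the 2 pairs formed by replicate number), with an exact permutation p of 0.333. Expressed as the fraction lost, which is the D4 level minus the D6 level divided by the D4 level, it came to 15.3% in replicate 1 and 14.3% in replicate 2, or 14.8% ± 0.703. The tile mean was lower at D6 in 88.6% of tiles, and the median difference was -8.48 points, with 5th and 95th percentiles of -20.6 and 3.44 points. Both D6 libraries lay below both D4 libraries in 72993 tiles (64%), and both lay above in 3149 tiles (2.76%). A fall of at least 25 points was seen in 1.83% of tiles and a rise of at least 10 points in 1.11%.

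The fraction lost depended on the start level. Tiles were put in classes by the D4 library that did not supply their start level. In tiles that started under 20%, the level was 11.4% and 10.9% in the D4 libraries and 8.66% and 9.14% in the D6 libraries, a loss of 20.1% ± 5.16 (SD, n = 2 pairs). Tiles at 20 to 40% lost 20.5% ± 1.74 and tiles at 40 to 60% lost 17.5% ± 0.701. The loss was 14.7% ± 0.586 at 60 to 80%, 11.8% ± 0.319 at 80 to 90% and 10.3% ± 0.388 at 90 to 100%. From 20% upwards each class lost a smaller fraction than the class below it in both replicates, and the gap between the classes at 20 to 40% and 90 to 100% was 10.2 points of fraction ± 1.35. The class under 20% could not be ranked, since its replicates gave 23.7% and 16.4%, and the value was 10.3% when the class came from the mean of both D4 libraries.

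This order holds for the fraction only. In points, the loss rose from 2.24 ± 0.633 under 20% through 6.24 ± 0.561 and 9.10 ± 0.320 to 10.3 ± 0.381 at 60 to 80%, and stood at 9.78 ± 0.241 and 9.32 ± 0.341 in the upper classes. On the log-odds scale, the natural log of methylated over unmethylated, the change went steadily from -0.25 under 20% to -0.45 at 60 to 80% and -0.79 at 90 to 100%. The classes at 20 to 40% and 90 to 100% therefore stand in opposite order on those scales, by -3.09 points and by -0.48 log-odds units.

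The low classes also sit close to the background of the libraries. In 4325 tiles that were under 15% in all 16 libraries, the mean level was 5.37% and 5.29% in the D4 libraries and 4.18% and 4.55% in the D6 libraries. The same tiles alternated over the whole course, with 3.50% and 3.43% at D2, 5.26% and 5.09% at D8 and 3.81% and 3.99% at D10. The labels name no batch. With the background of each library subtracted, tiles under 20% lost 21.9% and tiles at 20 to 40% lost 21%, each within the spread of the pairs of the value without subtraction. All tiles together then lost 14.5%, and the classes at 80 to 90% and 90 to 100% lost 11.4% and 9.81%.

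CpG number per tile, the count of distinct CpGs listed in any library, was the other measure. The count reflects the RRBS coverage of the tile as well as its sequence. Tiles with 1 to 4 CpGs went from 59.0% and 59.1% at D4 to 49.2% and 49.8% at D6, a loss of 16.2% ± 0.544 (39065 tiles). Tiles with 5 to 9 CpGs lost 14.5% ± 0.715 and tiles with 10 to 19 lost 13.1% ± 0.738. Tiles with 20 or more CpGs went from 28.0% and 27.7% to 23.6% and 24.1%, a loss of 14.4% ± 1.67 (10874 tiles). The last class lost a larger fraction than the class of 10 to 19 CpGs in both pairs, at 15.5% against 13.6% and 13.2% against 12.5%, so the loss did not fall steadily with CpG number over all start levels. Over all start levels the CpG-poor class exceeded the CpG-rich class by 1.81 points of fraction ± 1.13.

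CpG-rich tiles started lower, so the classes were compared within classes of start level. There the order was regular in the upper classes and irregular in the low ones. Start levels were still unequal within a class. Mean D4 levels with 1 to 4 and with 20 or more CpGs were 34.3% and 23.2% at 20 to 40%, and 51.9% and 43.4% at 40 to 60%. They were 68.2% and 71.1% at 60 to 80%, 81.5% and 84.4% at 80 to 90%, and 90.6% and 90.7% at 90 to 100%. The part of these gaps in the order was not tested. Among tiles that started at 80 to 90%, the loss was 13.7% ± 0.854 in tiles of 1 to 4 CpGs, then 12.2% ± 0.306 for 5 to 9, 10.7% ± 0.138 for 10 to 19 and 9.46% ± 0.0131 for 20 or more. Among tiles that started at 90 to 100%, it was 12.2% ± 0.333, 10.7% ± 0.526, 8.52% ± 0.154 and 7.49% ± 0.525 in the same order. At 60 to 80% the values ran from 15.6% ± 0.480 to 12.5% ± 0.555. The excess of the CpG-poor over the CpG-rich class was 3.13 ± 0.0755, 4.24 ± 0.868 and 4.67 ± 0.192 points of fraction from 60 to 80% upwards, with the same sign in both replicates. At 20 to 40% and 40 to 60% it was smaller and less even, at 1.63 ± 1.24 and 1.95 ± 2.09, with a positive sign in both pairs (0.753 and 2.51, and 0.473 and 3.43). Under 20% it was -2.30 ± 0.565, in the opposite direction in both pairs. Unlike the order by start level, the order of the outermost CpG classes from 60 to 80% upwards was the same in points and log-odds. At 60 to 80% the classes of 1 to 4 and 5 to 9 CpGs changed places on the log-odds scale, where each stood at -0.46. At 90 to 100% the loss was 11 points with 1 to 4 CpGs and 6.79 points with 20 or more, and the log-odds changes were -0.91 and -0.63.

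**Figure D2:**
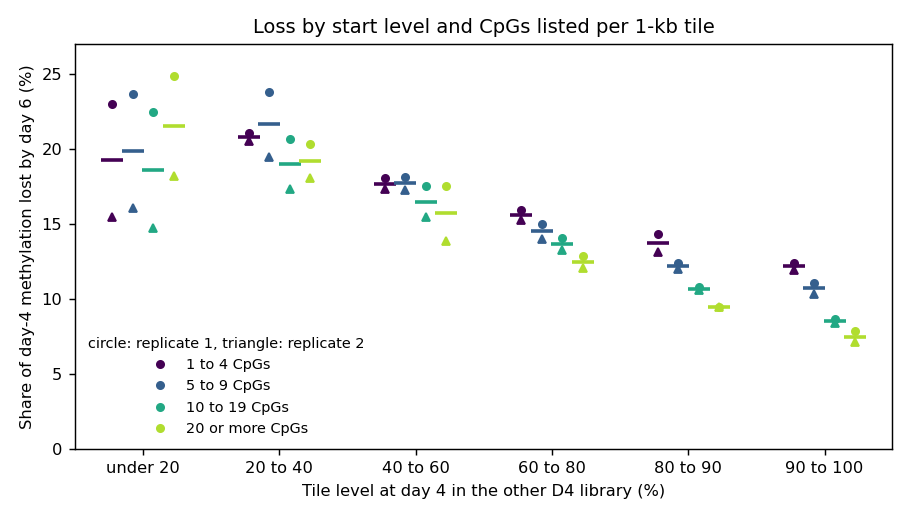
Fraction of the D4 level lost by D6 (y, %) against the class of start level (x, %), in 4 classes of CpGs listed per tile (colour). Circles and triangles are the replicate 1 and replicate 2 pairs and bars their mean. From 60 to 80% upwards the classes fall in order of CpG number, from 12.2% with 1 to 4 CpGs to 7.49% with 20 or more at 90 to 100%, while under 20% the replicates lie further apart than the classes.

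The same dependence was seen between single sites. Sites at 80% or more in the other D4 library were sorted by the distance to the nearest other listed CpG, again a distance among listed sites only. Sites 2 to 5 bp from their neighbour stood at 91.9% and 92.0% in the D4 libraries and 82.9% and 83.3% in the D6 libraries, a loss of 9.62% ± 0.220. The loss was 11% ± 0.223 at 6 to 10 bp, 12.2% ± 0.301 at 11 to 20 bp, 14.3% ± 0.446 at 21 to 50 bp and 15.7% ± 0.361 at 51 to 100 bp. Isolated sites, over 100 bp from the next listed CpG, stood at 89.2% and 89.1% at D4 and 74.6% and 74.9% at D6, a loss of 16.1% ± 0.308. Isolated sites thus exceeded the closest ones by 6.47 points of fraction ± 0.0897, with little change when only sites at 90% or more were used (6.40 ± 0.0395). Start levels were not equal across the classes, and the lowest were 87.0% in each D4 library at 51 to 100 bp. Neighbouring CpGs share reads and fragments, so the sites within a class are not independent, and only the 2 pairs were used for the error.

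**Figure D3:**
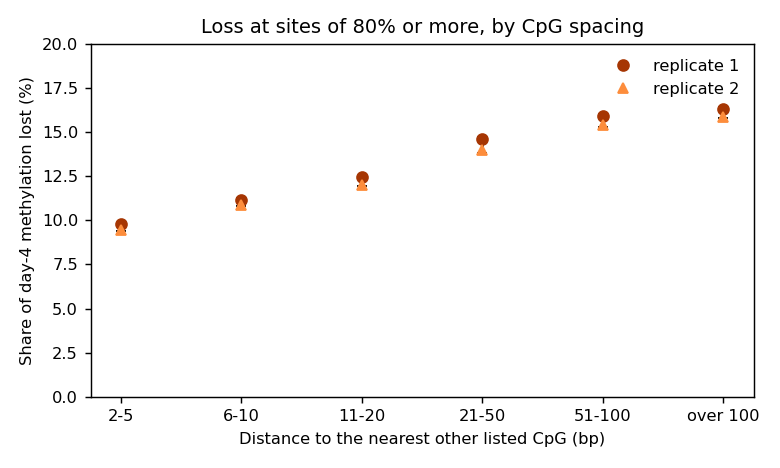
Fraction of the D4 level lost by D6 (y, %) at sites of 80% or more, against the distance to the nearest other listed CpG (x, bp, in classes), for the replicate 1 pair (circles) and the replicate 2 pair (triangles). The loss rises in each class from 9.62% at 2 to 5 bp to 16.1% over 100 bp, and the pairs lie closer to each other than the end classes do.

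Position along the genome made little difference at the scale of chromosomes. The fraction lost lay between 14.4% ± 0.748 on chromosome 10 and 15.2% ± 0.595 on chromosome 12, a range of 0.786 points of fraction. Chromosome 12 exceeded chromosome 10 in both pairs, and as the extremes of 19 chromosomes they were given no test. Outside the rule, chromosome X lost 15.1% ± 0.190 (2875 tiles) and chromosome Y 15.6% ± 2.40 (223 tiles). Windows of 1 Mb were used when they held at least 20 tiles with a level of 60% or more at D2. In these 1225 windows the median loss was 13.5%, and the 5th and 95th percentiles were 11.1% and 16.6%. The lowest and highest windows lost 8.38% and 19.3%. No window gained methylation. The windows kept part of their order between pairs. The 123 windows with the highest loss in replicate 1 had a median of 17.6% there and 14.4% in replicate 2. The 123 with the lowest loss had medians of 10.7% and 12.5%, while the median of all windows was 13.3% in replicate 2. The correlation of the windows between pairs was 0.256, given as a description over windows that share libraries.

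At the level of single tiles the differences between tiles were small beside the noise. In tiles at 80 to 90% at D2, a day not used in the step, the change had an SD over tiles of 8.33 points in replicate 1 and 7.63 points in replicate 2. Counting error alone gives an SD of 3.87 points if all counts of a tile are independent. CpGs of a tile can share reads, so the counting error can be larger than this. The part shared by both pairs corresponded to an SD of 3.18 points, and the correlation between pairs was 0.159, or 0.223 in tiles with at least 200 reads. In tiles under 20% at D2 the shared SD was 2.06 points and the correlation 0.0466. The shared part reached little beyond the tile itself. Across pairs, the change of a tile correlated at 0.133 with that of the same tile, 0.0549 with a tile 1 kb away, 0.0308 with one 10 kb away and 0.00107 with one 50 kb away. These correlations are descriptions over tiles and carry no p.

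Tiles were then tested one at a time with edgeR's quasi-likelihood test on methylated and unmethylated reads, with all 16 libraries sharing 1 estimate of the spread. Calls needed an adjusted p under 0.05 (Benjamini-Hochberg over all tiles) and a difference of 10 points or more. Of 114041 tiles, 3489 were called lower at D6 (3.06%) and 13 higher (0.0114%). At an unadjusted p under 0.05, 32368 tiles were lower and 453 higher. The called tiles fell by a median of 18.7 points. The smallest adjusted p of the test was 0.0123, so the calls lie near the threshold, and their number depended on the fit. With the 4 libraries of D4 and D6 fitted alone 0 tiles were called in either direction, although 33369 had an unadjusted p under 0.05, and the same was true when any library of D4 or D6 was left out, with 20781 to 24427 tiles at an unadjusted p under 0.05. A quasi-binomial model called 8013 tiles lower (7.03%) and 178 higher (0.156%). Its lower calls included 2350 of the 3489 tiles, which is 67.4% of the edgeR calls and 29.3% of its own.

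Calls were spread unevenly over the classes of level, CpG number and reads. By the level at D2, the share called lower was 0.420% of tiles under 20%, 1.41% of tiles at 40 to 60%, 8.16% at 80 to 90% and 7.32% at 90 to 100%. By CpG number it was 2.71% for 1 to 4 CpGs, 3.71% for 5 to 9, 3.31% for 10 to 19 and 1.31% from 20 upwards. By reads it rose from 0.661% of tiles with under 100 reads to 5.64% of tiles with 400 to 800 reads, and was 5.37% from 800 reads upwards. Called tiles had a median of 381 reads, against 217 over all tiles, so a tile without a call can be one with few reads. Yet tiles under 20% at D2 had a median of 481 reads, and tiles with 20 or more CpGs 742. A call also needed a fall of 10 points, which leaves little room to tiles that start low. Both D6 libraries lay below both D4 libraries in 80.3% of the tiles at 80 to 90% at D2 and in 28.6% of those under 20%.

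The 10 largest falls among called tiles, limited to tiles with at least 5 sites, show what the extreme of the step looked like. A minimum of 50 reads per library, summed over sites, was also set. It excluded no further tile, because each site already needed at least 10 reads in each library. It is thus no added safeguard of depth, and a read is counted at each site it covers. The 10 falls were picked for their size in this contrast, so their D4 and D6 values describe the selection. The largest was chr10:127493001-127494000, where the level was 65.0% and 76.0% in the D4 libraries and 11.2% and 14.7% in the D6 libraries (adjusted p = 0.0228, edgeR with Benjamini-Hochberg adjustment). It had stood at 82.6% and 86.7% at D0 and at 45.9% in the one D2 library that listed its sites, so the D4 level lay above the preceding day. It was at 33.1% and 35.5% at D8 and at 22.2% and 26.2% at D12, so its D6 level was the lowest of the course. Its 5 sites lay between positions 127493054 and 127493102 on the minus strand, with 12 to 29 reads each. The tile 1 kb before it, with 3 sites, read 80% and 87.3% at D4 and 48.3% and 51.1% at D6, a difference of -34.0 points. The nearest tiles of 7 other falls, 1 to 3 kb away, differed by only -7.65 to 2.37 points.

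The fall with the smallest adjusted p of the set was on chromosome 15. In chr15:61997001-61998000 the D4 libraries read 81.4% and 76.4% and the D6 libraries 30.3% and 33.0% (adjusted p = 0.0123), on 326 to 892 reads per library. It had held 86.5% and 89.6% at D0 and 78.9% and 79.0% at D2. After D6 it hardly moved, at 33.7% and 31.6% at D8, 30.0% and 32% at D10 and 24.2% and 20.0% at D12, and it was back at 82.1% and 82.2% in induced pluripotent stem cells (iPSCs). In this tile most of the loss of the whole course fell within the step from D4 to D6. In chr16:11327001-11328000 a like course was read, with 62.1% and 63.9% at D4, 18.1% and 24.2% at D6, 20.0% and 20.7% at D12 and 83.1% and 78.9% in iPSCs (adjusted p = 0.0287).

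Other tiles of the set reached a high D4 level from a low one, so that the fall undid a rise. In chr6:97464001-97465000, with 26 CpGs, the level was 12.5% and 8.09% at D2, on 16 and 346 reads. It was 42.8% and 58.8% at D4 and 1.25% and 7.35% at D6, and it stood at 57.4% and 29.7% at D12. In chr17:57556001-57557000, with 31 CpGs, it was 17.9% and 8.62% at D2, on 39 and 58 reads. There the level was 62.4% and 62.2% at D4 and 22.8% and 12.7% at D6, on 9 sites. With strands merged the difference was -26.7 points and was not called (adjusted p = 0.104, edgeR with Benjamini-Hochberg adjustment). The level was 25.0% and 37.8% at D8, on 16 and 143 reads, and 45.8% and 59.6% at D12. In chr6:99252001-99253000 it was 20.4% and 33.9% at D2, 59.5% and 43.6% at D4 and 6.90% and 15.4% at D6. For such tiles the D4 libraries, not the D6 libraries, stand apart from the neighbouring days. D4 was also above the earlier days at chr14:70238001-70239000, with means of 53.5% at D0, 42.2% at D2, 71.9% at D4 and 26.2% at D6. The same was read at chr8:123313001-123314000, with 48.8%, 42.1%, 76.3% and 34.5%. The other 2 tiles of the set, chr5:29942001-29943000 and chr6:72938001-72939000, fell by 50.6 and 40.5 points.

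Rises were few and mostly began near 0. In chr2:113047001-113048000, with 52 CpGs, the D4 libraries read 0.551% and 0.254% and the D6 libraries 21.3% and 43.2%, a rise of 31.9 points (adjusted p = 0.0346). It was at 0.714% and 15.5% at D2 and at 39.3% and 20.2% at D8. D2 replicate 1 was thus about as low as the D4 libraries, and the replicates lay far apart at D2 and at D6. The strands also disagreed at D6. At 113047146 on the plus strand, D6 replicates 1 and 2 read 42.9% and 32.6%, on 14 and 43 reads. At 113047147 on the minus strand they read 11.8% and 71.0%, on 17 and 31 reads. In chr2:83555001-83556000 the level went from 4.58% and 3.14% to 17.6% and 32.5%, and in chr7:126807001-126808000 from 9.23% and 7.49% to 33.1% and 32.2%. In the latter tile the level was 38.5% at D0 and 27.5% at D2, each in the only library with reads, so D4 lay below those days. In chr11:102447001-102448000 it was 23.4% and 20.0% at D6, after 0 methylated of 60 and of 83 counts in the D4 libraries. These counts are summed over 6 sites, and a read is counted at each site it covers. If all counts were independent, levels of up to 5% and 3.61% would be allowed (3 counts of the total, counting error only). With fewer separate reads the allowed levels are higher. The rise at chr9:42415001-42416000 was of another kind, from a high level to a higher one. It read 66.7% and 63.7% at D4 and 88.5% and 90.4% at D6 (adjusted p = 0.0373), after 86.3% and 86.7% at D0, and went on to 45.5% and 46.3% at D10. The adjoining tile, chr9:42416001-42417000, read 19% and 22% (rounded) at D4 and 72.2% and 59.1% at D6, a difference of 44.9 points in the same direction. The nearest tiles of the rises at chr2:113047001-113048000, chr7:126807001-126808000 and chr2:83555001-83556000 differed by -6.16, -2.49 and 0.07 points. The calls at chr9:42415001-42416000 and chr11:102447001-102448000 were not made by the quasi-binomial model (adjusted p = 0.188 and 0.442).

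Tiles that held their methylation through the step were looked for among deep tiles. Of 2516 tiles at 80% or more in both D4 libraries with at least 500 reads in each library, 877 were lower by 10 points or more, 49 stayed within 2 points, and the median difference was -8.42 points. The 5 with the smallest difference are given as a description with no test. In chr4:52821001-52822000 the level was 94.3% and 92.5% at D4 and 93.6% and 92.0% at D6, and it was still 92.4% and 90.3% at D10 and 76.0% and 78.4% at D12. Among its 14 CpGs, 9 stand 2 bp apart from 52821337 to 52821353, and each of these sites was at 89.7% or more in all 4 libraries. In chr6:114540001-114541000 the level was 87.4% and 86.6% at D4, 81.0% and 91.9% at D6, and 79.5% and 73.7% at D12.

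The other steady tiles lost methylation after D6. In chr13:34930001-34931000 the level was 88.4% and 89.7% at D4, 88% and 90.7% at D6 and 52.8% and 54.4% at D12. In chr9:72819001-72820000 it was 89.4% and 89.9% at D4, 86.1% and 92.4% at D6, and then 57.9% and 58.9% at D8 and 20.4% and 29.7% at D10. In that tile a level held through D6 was followed by a large fall from one collection to the next. In chr1:36143001-36144000 it was 89.7% and 90.8% at D4, 89.1% and 90.6% at D6 and 71.6% and 68.9% at D12, but the replicates lay far apart at D2, with 62.4% and 90.5%, and at D8, with 65.5% and 83.9%. Its steadiness depended on the sites used: the difference was 9.65 points with at least 20 reads per site and 14.9 points on sites covered in all 16 libraries. On those 16-library sites chr13:34930001-34931000 differed by 2.52 points.

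**Figure D4:**
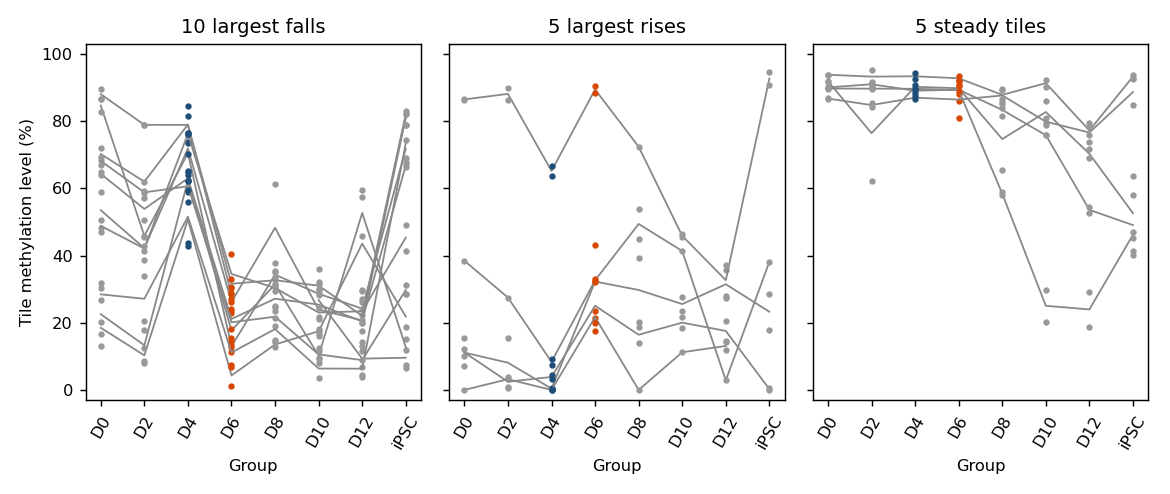
Methylation level (y, %) of the named tiles in each group (x), with the 10 largest falls, the 5 largest rises and the 5 steady tiles in separate panels. Points are libraries, lines join group means, blue marks D4 and orange D6. Several falls start from a D4 level above that of D2. The tile chr6:97464001-97465000 read 12.5% and 8.09% at D2 (16 and 346 reads), 42.8% and 58.8% at D4 and 1.25% and 7.35% at D6. The steady tiles stay at 81.0% or more in each D6 library.

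The step was set beside the steps around it, over 92383 tiles whose sites were covered in all 16 libraries. Mean tile levels were 57.8% ± 0.120 (SD, n = 2) at D0, 55.1% ± 0.00354 at D2, 56.4% ± 0.0924 at D4 and 47.8% ± 0.381 at D6, then 35.1% ± 0.789 at D8, 26.0% ± 0.310 at D10 and 17.7% ± 0.0807 at D12. The fraction of the level lost was 4.70% ± 0.204 from D0 to D2, a gain of 2.50% ± 0.174 from D2 to D4, and a loss of 15.3% ± 0.536 from D4 to D6. It was 26.5% ± 2.24 from D6 to D8, 26.0% ± 2.55 from D8 to D10 and 31.8% ± 1.12 from D10 to D12. By these values the step from D4 to D6 was the first large loss and smaller than each of the later ones. In points the order was different: 8.63 ± 0.289 from D4 to D6, 12.7 ± 1.17, 9.13 ± 1.10 and 8.26 ± 0.391 in the later steps.

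In tiles at 80% or more at D2, the steps before D4 were nearly flat and the order by CpG number was kept in the later steps. Tiles with 1 to 4 CpGs lost 0.700% ± 0.108 from D2 to D4, 13.9% ± 0.712 from D4 to D6, 29.3% ± 2.41 from D6 to D8 and 23.6% ± 3.26 from D8 to D10. Tiles with 20 or more CpGs gained 0.370% ± 0.23 in the first of these steps and lost 8.92% ± 0.370, 19.8% ± 0.995 and 12.8% ± 0.705 in the others. The low tiles behaved differently: tiles under 20% at D2 lost 20.7% ± 4.42 from D4 to D6 and gained 18% ± 11.2 from D6 to D8, in the same alternation as the background tiles.

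Whether the pace changed was tested per tile on the log-odds scale, as the difference between adjoining steps, which share libraries. In 103307 tiles, edgeR with Benjamini-Hochberg adjustment called 0 (0%) for the step from D4 to D6 against that from D2 to D4, where 14474 had an unadjusted p under 0.05 and the smallest adjusted p was 0.0535. The median difference was -0.53, and it was negative in 86.7% of tiles. For the step from D6 to D8 against that from D4 to D6 it called 0 (0%) as well, with 8196 tiles at an unadjusted p under 0.05, a smallest adjusted p of 0.125 and a median of -0.18. With 2 libraries per day, no single tile was thus shown to change its pace.

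**Figure D5:**
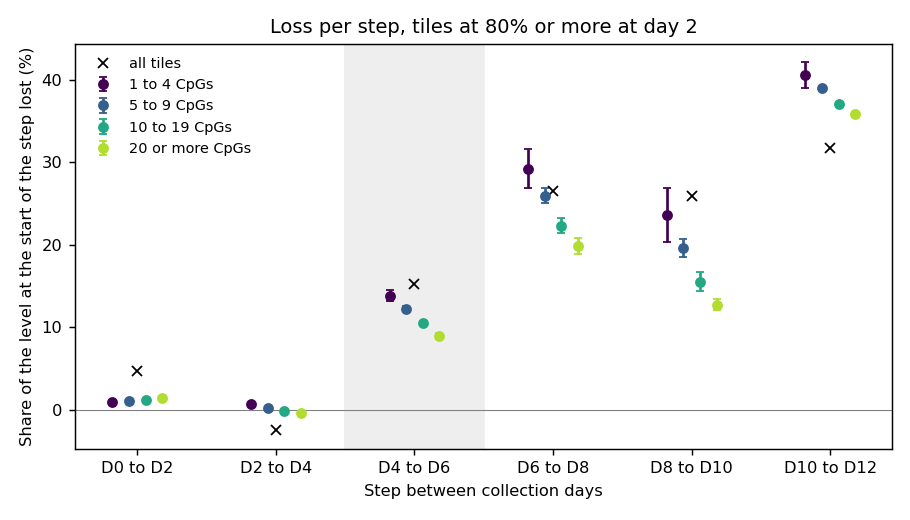
Fraction of the level at the start of each 2-day step that was lost in it (y, %; below 0 is a gain), for tiles at 80% or more at D2 in 4 classes of CpGs listed per tile (circles, mean and SD of 2 pairs) and for all tiles (crosses). The shaded step from D4 to D6 reads 13.9% with 1 to 4 CpGs and 8.92% with 20 or more, between flat earlier steps and the larger losses from D6 to D8 of 29.3% and 19.8%.

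The called tiles were last compared with tiles of the same D2 class that were not called, on days outside the contrast. Among tiles at 80 to 90% at D2, the 1122 called tiles stood at 51.6% and 51.4% at D8 and the 11922 others at 56.4% and 55.4%. At D12 the levels were 23.6% and 23.8% against 28.4% and 28.5%, and in iPSCs 76.5% in each library against 74.5% and 74.4%. In tiles at 60 to 80% at D2, the 1575 called tiles were at 39.3% and 39.2% at D8 against 43.6% and 42.4%, and at 16.7% and 16.6% at D12 against 20.4% and 20.2%. The difference in level at D8 was smaller than at D6, where the call itself set it at 68.9% ± 0.600 against 74.5% ± 0.329 in the upper class. Called tiles were lower in both libraries of D8, D10 and D12 in the 4 classes of D2 level from 40% upwards and higher in both iPSC libraries. These days entered the same fit, though not the contrast, and the called tiles were deeper, whose part in these differences was not tested.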

How the data were processed

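The submitters' processing notes name GRCm39 as the build, with methylKit, Bowtie2, Bismark 0.23.0 and fastp 0.20.1. Not given in the sources used here are trimming, duplicate handling and the treatment of filled-in fragment ends, which can shift levels at MspI sites. Per the labels' protocols, libraries had 15 PCR cycles and reads of 150 bp. In the deposited tables, coverage is a count of reads per CpG and strand, and freqC and freqT are the percent of reads called C and T. Coverage times percent gave whole methylated reads at every listed site, and no library lists sites under 10 reads.

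Tiles, levels and fractions were computed in Python 3.11.15. Tile levels are methylated reads over all reads at the common sites, and class values are means over tiles. Tile tests used edgeR 4.0.16 in R 4.3.3 (glmQLFit, glmQLFTest) with an effect per library, a methylation coefficient per group and a common dispersion from 5000 tiles, with 8 residual degrees of freedom. The script was tested on simulated data. Pairs follow the replicate number only for the SD: over tiles, the deviations of same-numbered libraries had r = -0.00437, so the numbers do not pair the libraries. Named tiles were the 10 largest called falls, 5 largest called rises and 5 smallest differences among tiles at 80% or more with 500 reads, outside chromosome 18. Each needed at least 5 sites. Named falls and rises also needed both D6 libraries on the same side of both D4 libraries, so their separation was set by the choice. Of the 13 tiles called higher, 12 met these rules. The step, classes and rules were chosen with earlier results of these data known. Alternatives were other coverage and site minimums, common sites of all libraries, merged strands, other models, a replicate block, other start classes, background subtraction and each library left out. The planned gene lists and the CpG number of the genome sequence were not analysed here.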

Additional observations from a re-analysis of the deposited data

Results flagged for a closer look

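The step before moved against the step from D4 to D6. Over all tiles covered in the 16 libraries the fraction lost was -2.50% from D2 to D4, a gain, and 15.3% from D4 to D6, and each pair of libraries moved in the stated direction. In tiles with 20 or more CpGs the values were -15.8% and 14.5%. The steps share the D4 libraries, the difference of the tile means was not tested, and the tile-wise test of the difference called 0 tiles. In the background tiles D4 was also above D2 and D6. With each library's background subtracted, the loss from D4 to D6 over all tiles of the step was 14.5%, against 14.8% without; the step from D2 to D4 was not recomputed in this way.

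Mitochondrial sites lie outside the tiles. D4 replicate 1 listed 430 of them at a mean level of 94.1%, and 401 were at 80% or more with a median coverage of 27 reads. The other libraries listed between 18 and 175. On the 15 mitochondrial sites common to all libraries, D4 replicate 1 read 9.31% and D4 replicate 2 6.71%, against 5.95% and 8.12% in the D6 libraries. Without D4 replicate 1 the fraction lost over all autosomal tiles was 14.9%.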

How the results depend on the processing

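The global difference kept its sign under every alternative run. The fraction lost over all tiles was 16.3% with reads pooled over tiles and 15.6% with at least 20 reads per site. That read minimum gave 22.3%, 18.8%, 15.7%, 12.7% and 11.1% in the start classes from 20 to 40% upwards, and 17.4%, 15.3% and 13.8% with 1 to 4, 5 to 9 and 10 to 19 CpGs. With the start class taken from the mean of both D4 libraries, tiles under 20% lost 10.3%, tiles at 40 to 60% 16.8%, at 80 to 90% 12.6% and at 90 to 100% 11.7%. Background subtraction gave 11.4% and 9.81% in the upper classes. Tiles of at least 5 sites lost 9.39% at 90 to 100%, and the gap between 20 to 40% and 90 to 100% was then 11.7. Leaving out 1 library gave 11.6 to 12.2% at 80 to 90% and a gap of 8.84 to 11, the lowest without D6 replicate 1. That gap reversed to -3.09 in points and -0.48 in log-odds. The excess of the CpG-poor class reversed to -2.30 within start levels under 20% and was 3.13, 4.24 and 4.67 in the classes from 60% upwards. The range over chromosomes was 12 with reads pooled.

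Calls depended on the processing, and the cause was not tested. Lower and higher tiles numbered 0 and 0 in the 4-library fit and with any library left out. The tiles tested differed between settings, so the counts are given with their totals. Of 114041 tiles, 8013 and 178 were called in the quasi-binomial model, and 541 and 2 with a minimum of 25 points. With 20 reads per site 6517 and 7 of 61904 tiles were called, and with 1 site per tile 879 and 4 of 153874. Sites common to all libraries gave 6178 lower of 92383, and no minimum difference gave 26 higher. The replicate numbers do not pair the libraries. The replicate block gave 155 and 1, and 0 and 0 in the 4-library fit, which was chosen after seeing the data. The 15 named calls were lost in the 4-library fit and in 60 of 60 fits with a library left out. Of the 15, 11 were lost with the replicate block, 6 with 1 site per tile, 3 with strands merged and 2 in the quasi-binomial model, and 1 each with 20 reads per site (of 4 present) and on sites common to all libraries (of 6). No direction changed.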

Other observations

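A few tiles held a large share of the reads. The tile chr2:98497001-98498000 held 54775 and 65252 reads in the D4 libraries and 527971 and 1018542 reads in the D6 libraries, a rise from 0.105% and 0.115% of the summed coverage to 1.35% and 1.22%. Its level went from 83.4% and 82.8% to 71.9% and 73.2%, a loss of 12.7%, and its share of reads was 0.479% in D8 replicate 1 and 0.583% in iPSC replicate 1. With reads pooled, chromosome 2 lost 7.79% and chromosome 9 10.7%, while the means of tile levels gave 15.0% and 14.7%. The part of single deep tiles in these pooled values was not tested, and none of the 6 deepest tiles lay on chromosome 9. Another tile of the same stretch, chr2:98492001-98493000, gained 27.1% of its level in the step.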
